A study of Homo sapiens with 8 samples.

Results

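The 4 libraries of SK-Hep1 cells with ectopic SLC29A2, out of 8 in the study, were used to describe what dipyridamole changed in these cells. The libraries given dipyridamole, 1 with dipyridamole alone and 1 with dipyridamole and sorafenib, were set against the 2 libraries not given it, 1 with a control treatment and 1 with sorafenib alone. This made 2 pairs that differed in dipyridamole, 1 without sorafenib and 1 with it. SK-Hep1 is an established human liver tumour line with endothelial-like traits. The other 4 libraries came from mock cells of the same line under the same 4 treatments, and each condition had 1 library. No drug is named for the control treatment, so that name is a reading of the labels. The sources used here do not give doses, treatment times, the vector or whether the SLC29A2 cells were a single clone.

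Dipyridamole blocks the equilibrative nucleoside transporters, which carry adenosine and other nucleosides across the cell membrane, and it inhibits several cyclic nucleotide phosphodiesterases. SLC29A2 encodes ENT2, one of these transporters. Blocked uptake leaves more adenosine outside the cell and less nucleoside for salvage, while blocked phosphodiesterases let cyclic AMP and cyclic GMP persist. Dipyridamole has also been described as interfering with the sterol-sensing SREBP pathway. Sorafenib inhibits RAF kinases and several receptor tyrosine kinases.

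The SLC29A2 libraries held 14.49 to 16.50 M reads as judged from the steps of their values, and 22613 to 23514 genes were above 0 in each. Levels are in FPKM, which counts fragments relative to the length of the gene and the size of the library. Of the values in each pair given below, the first is from the library without sorafenib and the second from the library with it. SLC29A2 (ENSG00000174669, chr11:66362521-66372214 of GRCh38, minus strand) stood at 2054 and 2025 FPKM with dipyridamole, against 1476 and 3040 FPKM without it, and at 7.11 to 7.81 FPKM in the 4 mock libraries. Reads of the mitochondrial genome took 4.05% and 2.25% of the libraries given dipyridamole, against 4.55% and 3.34% of those not given it. Of 15 hepatocyte markers, 9 were at 0 in all 4 libraries and the list summed to 6.09 to 10.6 FPKM, so the cells showed almost none of the defining RNA of hepatocytes. Leukocyte markers summed to 0.809 to 4.03 FPKM. Endothelial markers summed to 164 and 120 FPKM with dipyridamole, against 137 and 116 FPKM without it, of which ENG, ESM1, ROBO4 and MCAM made up nearly all. On the same list PECAM1, CDH5, KDR, TEK, ERG, EMCN, FLT1 and CLDN5 were at 0 or at most 0.136 FPKM in each of the 4. TIE1 had 5.02 and 1.78 FPKM with dipyridamole, against 1.63 and 1.91 FPKM without it. VWF had 0.231 and 1.66 FPKM with dipyridamole, against 0.324 and 0.172 FPKM without it.

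Of 13707 genes whose level averaged 1 FPKM or more in these 4 libraries, 2776 (20.3%) passed an adjusted p of 0.05, with 1317 higher (9.61%) and 1459 lower (10.6%) in cells given dipyridamole. The test was limma on log2(FPKM + 1) with sorafenib as a term, and log2 differences below are means over both pairs ± SE. Counts in the gene lists below can be read against the shares of 9.61% and 10.6%. At least 2-fold changes were made by 473 of the higher genes and 576 of the lower ones. Both pairs moved the same way for 2771 of the 2776, and across all genes tested for 72.7%. Agreement among the called genes is partly built in, because the test sets the mean of the 2 pairs against the gap between them. Since each condition had 1 library, the p-values measure only the spread between these libraries, and any change of the dipyridamole effect under sorafenib is part of that spread. The count was 296 without the sorafenib term, with 34.1% of calls higher instead of 47.4%, and 0 when genes below 1 FPKM were kept, where 4474 had an unadjusted p under 0.05. Leaving out 1 SLC29A2 library of a fit to all 8 libraries gave 1475 without the control library, 1044 without the sorafenib library, 2306 without the dipyridamole library and 2158 without the library given both drugs. All 4 of these fits kept 785 of the calls (28.3%). Within SLC29A2 cells alone, 3 libraries fitted without the sorafenib term gave 0 calls without the control library, 5 without the sorafenib library, 2371 without the dipyridamole library and 566 without the library given both drugs. The genes described below kept their call in all 4 fits from the 8 libraries unless a sentence says otherwise.

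The gene that fell most was THBS1 (ENSG00000137801, chr15:39581079-39599466, plus strand), which encodes thrombospondin 1, a secreted inhibitor of vessel growth and activator of TGF-beta. It had 148 and 77.8 FPKM with dipyridamole, against 1189 and 735 FPKM without it, a log2 difference of -3.11 ± 0.19 (adjusted p = 2.36e-07). The highest library given dipyridamole was far below the lowest one without it. RRM2, the small subunit of ribonucleotide reductase that makes the building blocks of DNA, had 19.95 and 7.88 FPKM with dipyridamole, against 136 and 63.2 FPKM without it (-2.78 ± 0.19, adjusted p = 7.65e-07). C4BPB, a subunit of the complement inhibitor C4b-binding protein, had 7.80 and 10.1 FPKM with dipyridamole, against 43.1 and 85.8 FPKM without it (-2.64 ± 0.21). In neither gene did the groups overlap.

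Genes of cell division made up much of the rest of these 12 falls. KIF20A, a kinesin of the late mitotic spindle, had 13.1 and 12.4 FPKM with dipyridamole, against 74.7 and 66.1 FPKM without it (-2.38 ± 0.19). ANLN, the anillin scaffold of the cleavage furrow, had 42.7 and 44.2 FPKM with dipyridamole, against 207 and 185 FPKM without it (-2.15 ± 0.18). MCM4, a subunit of the replicative helicase, fell by 2.15 ± 0.18 on the log2 scale and LMNB1, the lamin B1 of the nuclear lamina, fell by 2.20 ± 0.19. FAM111B, a protease-like gene linked to replication, fell by 2.25 ± 0.24. KIF20A and ANLN overlap expressed genes on the other strand, and the strand of reads is not stated, so their reads cannot be fully separated from those neighbours.

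The remaining falls were in membrane and signalling genes. CAVIN2, a coat protein of caveolae, had 10.4 and 18.7 FPKM with dipyridamole, against 66.6 and 70.6 FPKM without it (-2.21 ± 0.21). GJA5, the gap junction protein connexin 40 of arterial endothelium, had 1.46 and 0.777 FPKM with dipyridamole, against 9.44 and 7.39 FPKM without it (-2.16 ± 0.26). IL7R, the interleukin 7 receptor chain, had 3.79 and 3.50 FPKM with dipyridamole, against 14.2 and 25.7 FPKM without it (-2.12 ± 0.25). All 3 genes were lower in each library given dipyridamole than in either library without it. GNG13, a G protein gamma subunit that overlaps CHTF18 on the other strand, fell by 2.21 ± 0.27 on the log2 scale, with 1.38 and 0.308 FPKM with dipyridamole, against 9.51 and 5.33 FPKM without it.

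**Figure D1:**
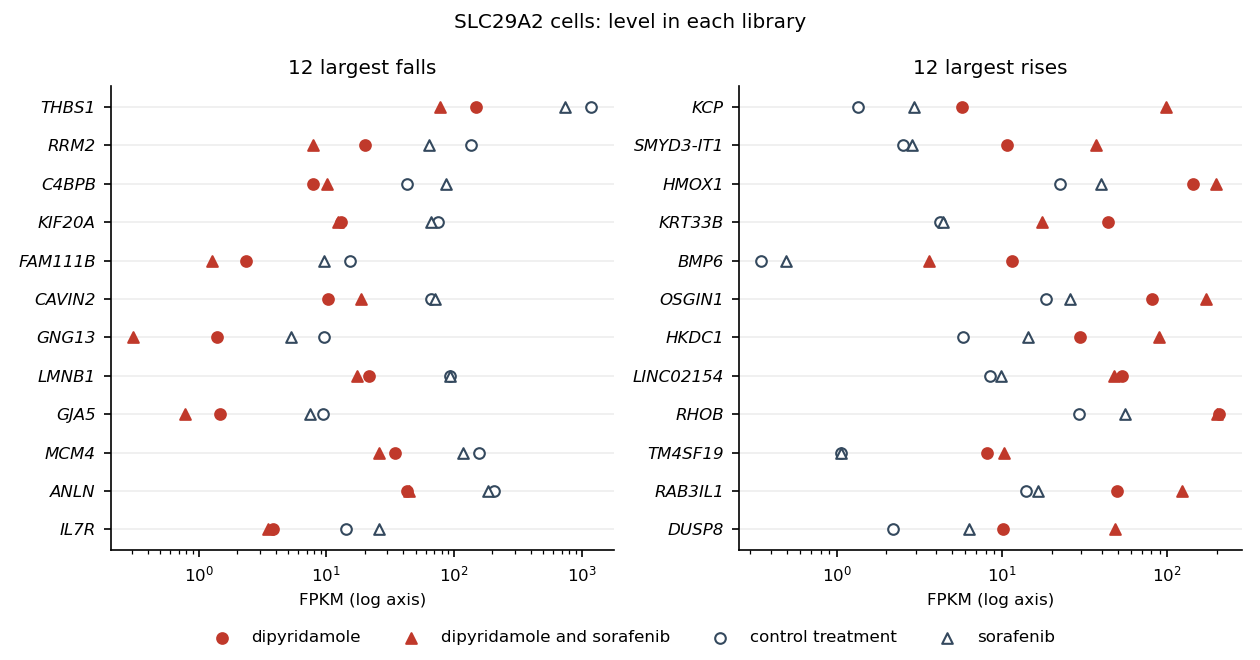
FPKM on a log axis of the 12 genes that fell most and the 12 that rose most with dipyridamole in SLC29A2 cells, with 1 point for each library. Filled red points are libraries given dipyridamole and open points those not given it, circles are without sorafenib and triangles with it. Filled and open points do not overlap in any of these 24 genes, which were picked for their size of change (over all genes tested 30.1% were apart as lower and 26.8% as higher), and KCP shows the widest gap between its 2 libraries given dipyridamole, 5.73 and 98.4 FPKM.

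HMOX1 (ENSG00000100292, chr22:35380361-35394214, plus strand) had the smallest p among the genes that rose. It encodes heme oxygenase 1, which breaks down heme and is a classic target of the oxidative stress factor NRF2. It had 143 and 196 FPKM with dipyridamole, against 22.4 and 39.9 FPKM without it (2.44 ± 0.19, adjusted p = 3.17e-06). OSGIN1, an oxidative stress-induced growth inhibitor that is also an NRF2 target, had 80.7 and 170 FPKM with dipyridamole, against 18.3 and 25.6 FPKM without it (2.38 ± 0.20). RHOB, an endosomal small GTPase induced by stress, had 206 and 199 FPKM with dipyridamole, against 29.2 and 55.2 FPKM without it (2.30 ± 0.22). The groups were apart in all 3 genes.

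BMP6, a secreted ligand that raises hepcidin and so limits iron uptake, had 11.4 and 3.64 FPKM with dipyridamole, against 0.351 and 0.497 FPKM without it (2.42 ± 0.34). HKDC1, a hexokinase-like enzyme, had 29.6 and 89.2 FPKM with dipyridamole, against 5.78 and 14.4 FPKM without it (2.36 ± 0.20). KRT33B, a hair keratin, had 43.8 and 17.5 FPKM with dipyridamole, against 4.21 and 4.38 FPKM without it (2.44 ± 0.27). Thus BMP6 and KRT33B were highest with dipyridamole alone and HKDC1 was highest with both drugs. DUSP8, a phosphatase of stress-activated MAP kinases, RAB3IL1, an exchange factor for RAB proteins, and TM4SF19, a tetraspan membrane gene that overlaps its own antisense RNA, rose by 2.28 ± 0.25, 2.29 ± 0.23 and 2.30 ± 0.26. The long non-coding RNAs LINC02154 and SMYD3-IT1 rose by 2.34 ± 0.20 and 2.52 ± 0.30. KCP, a secreted modulator of BMP signalling, had 5.73 and 98.4 FPKM with dipyridamole, against 1.35 and 2.95 FPKM without it (3.08 ± 0.46). It overlaps ATP6V1F and ATP6V1FNB on the other strand. Its call was the only one of these 24 to be lost with a library left out, at adjusted p = 0.178 without the library given both drugs and 0.147 without the sorafenib library.

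**Figure D2:**
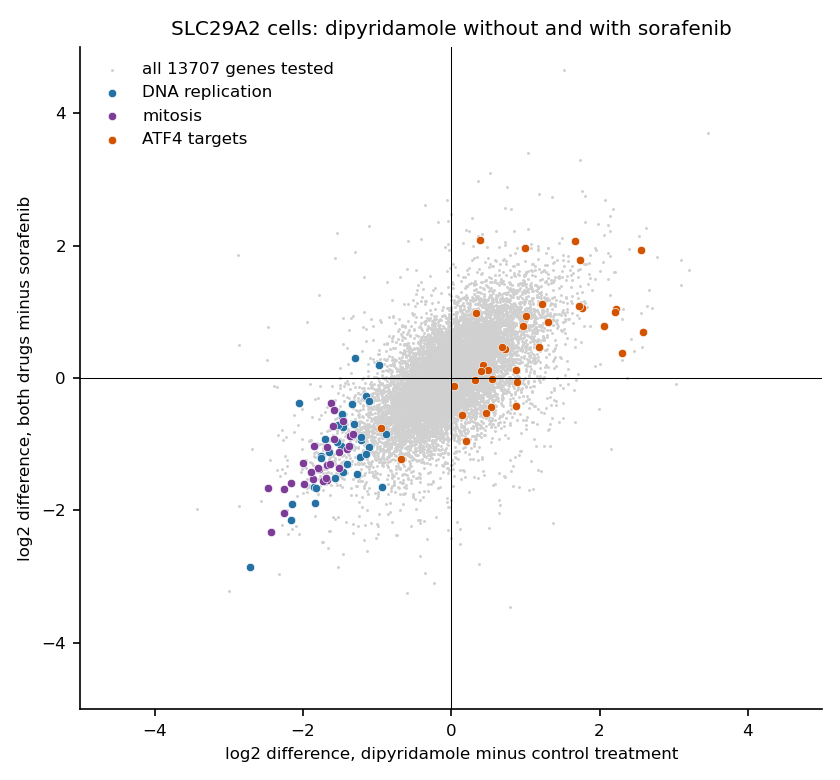
Log2 difference of each gene tested in SLC29A2 cells, dipyridamole minus control treatment across and both drugs minus sorafenib up the page, on the log2(FPKM + 1) scale. Grey points are all 13707 genes, and coloured points are the DNA replication, mitosis and ATF4 lists. The replication and mitosis genes lie in the lower left, where dipyridamole was lower in both pairs, and most ATF4 targets lie in the upper right.

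Among genes of nucleoside transport and adenosine, which include the transporters that dipyridamole blocks, 15 of 22 could be tested. In this list 2 rose (13.3%, against 9.61% of all genes) and 3 fell (20%, against 10.6%). SLC29A1, which encodes ENT1, another transporter of the plasma membrane (ENSG00000112759, chr6:44219505-44234151), had 64.9 and 42.0 FPKM with dipyridamole, against 127 and 91.5 FPKM without it (-1.03 ± 0.18, adjusted p = 0.00111). SLC29A2 itself did not pass the test (-0.05 ± 0.26, adjusted p = 0.909), and its 2 libraries without dipyridamole lay on either side of those given it. SLC29A3, the lysosomal member ENT3, also missed it (0.01 ± 0.27). SLC29A4, a transporter of monoamines and adenosine, had 6.79 and 5.54 FPKM with dipyridamole, against 2.59 and 3.03 FPKM without it (0.91 ± 0.25), and its call was lost without any of the control, dipyridamole and sorafenib libraries (adjusted p of 0.0805 to 0.0811).

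CDA, the cytidine deaminase of pyrimidine salvage, rose, with 98.1 and 114 FPKM with dipyridamole, against 35.9 and 64.2 FPKM without it (1.12 ± 0.20). The adenosine receptor ADORA1 had 1.53 and 3.61 FPKM with dipyridamole, against 8.61 and 7.92 FPKM without it (-1.44 ± 0.27), a call lost without the control or the dipyridamole library (adjusted p = 0.0780 and 0.0777). NT5E, the ectoenzyme CD73 that makes adenosine outside the cell, had 53.8 and 18.7 FPKM with dipyridamole, against 77.3 and 65.1 FPKM without it (-1.13 ± 0.24). Its call was lost without the library given both drugs (adjusted p = 0.235), the sorafenib library (0.246) or the dipyridamole library (0.0512). The salvage kinases did not pass: ADK differed by -0.40 ± 0.19, DCK by -0.59 ± 0.24, TK1 by -0.52 ± 0.21 and TK2 by -0.56 ± 0.22.

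Of the phosphodiesterases, 12 of the 21 found were tested. Among these 1 rose (8.33%, against 9.61% of all genes) and 2 fell (16.7%, against 10.6%), so both shares were near those of all genes. PDE2A, which hydrolyses both cyclic nucleotides, had 9.09 and 9.77 FPKM with dipyridamole, against 4.71 and 4.14 FPKM without it (0.95 ± 0.23). PDE3B, an enzyme inhibited by cyclic GMP, had 3.32 and 2.81 FPKM with dipyridamole, against 6.27 and 6.84 FPKM without it (-0.90 ± 0.25). PDE1C, a calcium-stimulated form, had 58.9 and 46.4 FPKM with dipyridamole, against 77.9 and 90.7 FPKM without it (-0.67 ± 0.19). Each of these 3 calls was lost in at least 2 of the 4 fits that left out a library, where adjusted p reached 0.145 for PDE2A, 0.0947 for PDE3B and 0.245 for PDE1C. PDE5A, the cyclic GMP enzyme that dipyridamole inhibits, had 1.82 and 2.73 FPKM with dipyridamole, against 3.38 and 3.84 FPKM without it and did not pass (-0.51 ± 0.27, adjusted p = 0.200). PDE7A, a cyclic AMP enzyme, differed by -0.65 ± 0.22 and narrowly missed the threshold, and the remaining 7 lay between -0.64 and 0.38.

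Downstream of cyclic AMP, 5 of 13 tested targets of CREB rose (38.5%, against 9.61% of all genes) and 1 fell (7.69%, against 10.6%). They included the immediate-early nuclear receptor NR4A1 (0.85 ± 0.20), the clock gene PER1 (0.69 ± 0.20) and the transcription factors CREB5 (1.36 ± 0.31) and ATF3 (1.24 ± 0.29). BDNF, a neurotrophin, fell by 1.12 ± 0.23 on the log2 scale. All 5 of these named calls were lost in at least 2 of the 4 fits that left out a library, where adjusted p reached 0.0902 for NR4A1, 0.156 for PER1, 0.142 for CREB5, 0.318 for ATF3 and 0.154 for BDNF. In those fits the number of higher members was 0 to 2. ATF3 is also counted among the ATF4 targets described below.

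**Figure D3:**
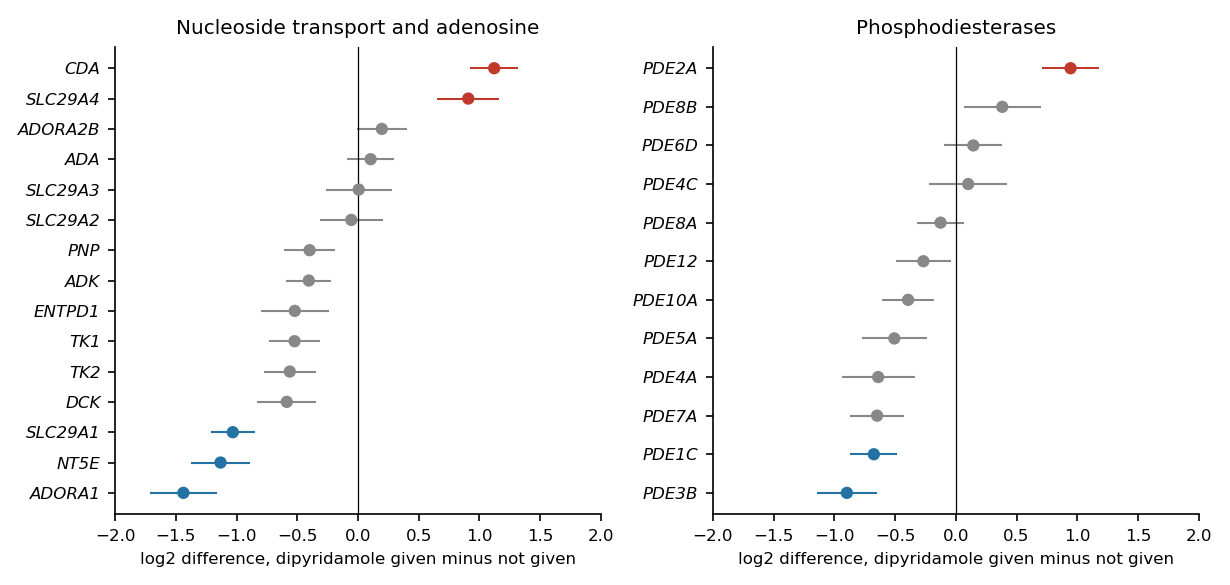
Log2 difference ± SE, dipyridamole given minus not given, of the tested genes of nucleoside transport and adenosine and of the phosphodiesterases in SLC29A2 cells (2 libraries a side). Red genes passed as higher, blue genes as lower and grey genes did not pass. CDA and SLC29A4 stand on the right of the first panel and SLC29A1, NT5E and ADORA1 on the left, while SLC29A2 sits near 0 at -0.05.

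Genes of cell division fell together. Of 39 DNA replication genes 37 fell and none rose, with a median log2 difference of -1.21, against -0.0025 over all genes tested. Of 29 mitosis genes all 29 fell, with a median of -1.49. All 29 mitosis genes and 37 of the replication genes were lower in both libraries given dipyridamole than in either library without it, a pattern found in 30.1% of all genes tested. With 1 library left out, 26 to 34 replication genes and 23 to 29 mitosis genes were called lower. RNA from a culture cannot tell a smaller share of dividing cells from less of these RNAs in each dividing cell.

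Windows around the gene starts were searched for 7 motifs known for these families. Each window runs from 250 bases before to 50 after the start, from RefSeq on GRCh38.p14, and for a gene with several starts the first listed was used. A match is a run of letters on either strand and not a measured site. E2F factors, which drive genes of the S phase, bind sites like TTTNNCGC, and this run lay in the windows of 22 of 35 replication genes with a window (62.9%), against 10.7% of 9544 tested genes with a window and 6.90% of all 27305. All 22 genes fell, in a list where 37 of 39 fell with or without this run. The windows of MCM3 (chr6:52284693-52284992, minus strand) and PCNA (chr20:5126573-5126872, minus strand) are shown with these runs in capitals, since both genes were among the replication genes with the smallest p.
MCM3: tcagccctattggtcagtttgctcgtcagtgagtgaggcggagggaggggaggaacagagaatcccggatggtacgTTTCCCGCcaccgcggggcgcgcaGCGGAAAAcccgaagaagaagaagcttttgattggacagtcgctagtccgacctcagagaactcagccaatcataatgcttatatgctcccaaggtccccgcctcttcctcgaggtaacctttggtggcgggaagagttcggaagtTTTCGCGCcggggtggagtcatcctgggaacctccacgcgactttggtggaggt
PCNA: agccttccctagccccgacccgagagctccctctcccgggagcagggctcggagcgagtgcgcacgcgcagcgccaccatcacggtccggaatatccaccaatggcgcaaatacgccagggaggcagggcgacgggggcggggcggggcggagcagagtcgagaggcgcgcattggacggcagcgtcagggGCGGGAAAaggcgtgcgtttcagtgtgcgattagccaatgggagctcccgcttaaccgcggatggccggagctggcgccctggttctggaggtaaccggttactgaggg

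MCM3, another helicase subunit, had 25.4 and 18.9 FPKM with dipyridamole, against 93.1 and 72.7 FPKM without it (-1.86 ± 0.18). PCNA, the sliding clamp of DNA polymerases, had 33.8 and 28.2 FPKM with dipyridamole, against 124 and 90.4 FPKM without it (-1.74 ± 0.18). The groups were apart by more than the gap between the libraries of either side.

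RRM2 held no TTTNNCGC in its window but carried the CCAAT box, CCAAT, which is bound by NF-Y and common in cell cycle promoters. Its window (chr2:10122489-10122788, plus strand) holds 3 of them, in capitals. CCAAT lay in the windows of 17 of 24 mitosis genes with a window (70.8%), against 36.5% of tested genes.
RRM2: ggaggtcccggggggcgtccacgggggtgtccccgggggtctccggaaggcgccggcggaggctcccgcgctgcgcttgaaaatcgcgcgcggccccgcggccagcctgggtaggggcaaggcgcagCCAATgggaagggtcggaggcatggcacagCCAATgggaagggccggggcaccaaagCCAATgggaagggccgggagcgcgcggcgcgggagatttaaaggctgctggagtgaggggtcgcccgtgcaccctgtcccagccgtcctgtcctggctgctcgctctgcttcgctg

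The cell cycle homology region, TTTGAA, is the element through which the DREAM complex represses late cell cycle genes. It lay in the windows of 16 of the 24 mitosis genes (66.7%), against 9.13% of tested genes. ANLN (chr7:36389612-36389911, plus strand) carried 2 adjacent matches in opposite orientation just before its start, shown in capitals.
ANLN: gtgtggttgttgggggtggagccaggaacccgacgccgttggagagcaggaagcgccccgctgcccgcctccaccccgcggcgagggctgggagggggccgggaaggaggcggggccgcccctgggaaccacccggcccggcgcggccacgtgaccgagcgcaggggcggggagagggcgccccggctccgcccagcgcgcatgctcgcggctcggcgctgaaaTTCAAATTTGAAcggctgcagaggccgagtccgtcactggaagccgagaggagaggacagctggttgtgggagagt

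MKI67, the proliferation antigen Ki-67, had 17.4 and 25.5 FPKM with dipyridamole, against 101 and 83.3 FPKM without it (-2.07 ± 0.21). CENPF, a kinetochore protein, had 34.2 and 47.5 FPKM with dipyridamole, against 166 and 154 FPKM without it (-1.96 ± 0.19). Both were thus lower in each library given dipyridamole, with or without sorafenib.

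DNA repair and nucleotide supply moved the same way in part. Of 22 genes of homologous recombination and the Fanconi pathway 14 fell and none rose (median -0.91), and 6 to 14 were called lower with 1 library left out, the fewest without the control library. RAD54L, a recombination motor, had 12.2 and 11.3 FPKM with dipyridamole, against 47.0 and 37.0 FPKM without it (-1.74 ± 0.20). RAD51AP1, FANCI and FANCA, which act at crosslinks and broken forks, fell by 1.55 ± 0.20, 1.58 ± 0.20 and 1.35 ± 0.20 on the log2 scale. Of 25 genes that make purines and pyrimidines 10 fell and 1 rose (median -0.50), and 5 to 8 were called lower with 1 library left out. Besides RRM2, these were led by the thymidylate synthase TYMS, which fell by 1.47 ± 0.23, the CTP synthase CTPS1, which fell by 1.12 ± 0.19, and the large reductase subunit RRM1, which fell by 1.09 ± 0.19. The gene that rose was IMPDH1, the first enzyme of guanine nucleotide synthesis (0.90 ± 0.20, lost without the library given both drugs at adjusted p = 0.107 and without the sorafenib library at 0.134). Of 8 clustered histone genes that could be tested in poly(A)-selected RNA 3 fell, and 0 to 2 were called lower with 1 library left out.

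Genes that the stress factor ATF4 activates when protein synthesis is slowed held the most rises of the 42 lists. Of 35 tested, 20 rose and 2 fell, with a median log2 difference of 0.65, and 11 to 15 were called higher with 1 library left out. TRIB3, a pseudokinase that feeds back on ATF4, had 176 and 279 FPKM with dipyridamole, against 29.05 and 72.8 FPKM without it (2.24 ± 0.20). DDIT3, the death-linked factor CHOP, had 36.4 and 46.2 FPKM with dipyridamole, against 10.2 and 12.7 FPKM without it (1.76 ± 0.19), although it overlaps MARS on the other strand. PPP1R15A, the phosphatase subunit GADD34 that restores protein synthesis, had 274 and 513 FPKM with dipyridamole, against 85.4 and 121 FPKM without it (1.87 ± 0.19). CEBPB, a partner of ATF4 on DNA, rose by 1.41 ± 0.20. All 4 were higher in each library given dipyridamole than in either library without it. The 2 that fell were SLC38A2, a glutamine transporter (-0.95 ± 0.20, lost without the sorafenib library at adjusted p = 0.134 and without the library given both drugs at 0.0998), and the factor ATF5 (-0.85 ± 0.20).

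The composite site of ATF4 and C/EBP factors, TGATGNAA, lay in the windows of 5 of 25 ATF4 targets with a window, against 1.57% of tested genes. CHAC1, a glutathione-degrading enzyme chosen for display after its values were seen, carried 1 match (chr15:40953221-40953520, plus strand, in capitals). It had 54.9 and 42.4 FPKM with dipyridamole, against 8.31 and 25.9 FPKM without it (1.64 ± 0.31), a call lost without the control, dipyridamole or sorafenib library (adjusted p = 0.189, 0.220 and 0.0503).
CHAC1: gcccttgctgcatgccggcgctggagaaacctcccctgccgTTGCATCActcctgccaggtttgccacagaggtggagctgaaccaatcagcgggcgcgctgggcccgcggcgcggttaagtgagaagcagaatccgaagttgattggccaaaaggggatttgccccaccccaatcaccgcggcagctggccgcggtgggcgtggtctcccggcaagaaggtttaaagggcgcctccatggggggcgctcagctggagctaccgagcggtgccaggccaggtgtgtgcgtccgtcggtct

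The other 3 motifs searched belong to the NRF2, lysosome and CREB lists. The antioxidant response element, TGACNNNGC, lay in 4 of 15 windows of NRF2 targets (26.7%), against 15.4% of tested genes, and none of those 4 genes passed the test. The CLEAR core, CACGTG, of lysosomal genes lay in 8 of 25 windows (32.0%), against 10.3% of tested genes, and of those 8 genes GAA and NEU1 rose. Neither GAA nor NEU1 was called higher when the sorafenib library was left out. The cAMP response element, TGACGTCA, lay in 2 of 12 windows of CREB targets (16.7%), against 3.31% of tested genes, and DUSP1 was the match that rose. DUSP1 was not called higher when the sorafenib library was left out.

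Chaperones did not follow the ATF4 list. Of 23 genes of the endoplasmic reticulum and its unfolded protein response 3 rose (13.0%, against 9.61% of all genes) and 5 fell (21.7%, against 10.6%). The stress sensor ERN1 rose by 1.03 ± 0.22 and the chaperone HSPA5 by 0.73 ± 0.24, while the chaperone HSP90B1 fell by 0.90 ± 0.21 and the disulfide isomerase PDIA4 by 0.89 ± 0.20. Each of these calls was lost in at least 1 of the fits that left out a library, where adjusted p reached 0.0895 for ERN1, 0.479 for HSPA5, 0.0752 for HSP90B1 and 0.0697 for PDIA4. HSPA5 had 554 and 944 FPKM with dipyridamole, against 482 and 395 FPKM without it, so most of its difference lay in the pair with sorafenib.

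Of 23 heat shock genes 6 rose and none fell, and 0 to 2 were called higher with 1 library left out. The inducible chaperone HSPA6 had 7.24 and 13.9 FPKM with dipyridamole, against 1.37 and 1.89 FPKM without it (2.08 ± 0.26, with adjusted p of 0.120 to 0.149 in the 3 fits that lost it). In the whole heat shock list 26.1% rose, against 9.61% of all genes. HSPA1A had 48.2 and 122 FPKM with dipyridamole, against 32.4 and 37.0 FPKM without it, and HSPA1B had 38.7 and 121 FPKM with dipyridamole, against 29.9 and 26.8 FPKM without it. These near-identical neighbours share reads, both were highest with both drugs, and both calls were lost in all 4 fits that left out a library (adjusted p of 0.113 to 0.467 for HSPA1A and 0.0935 to 0.581 for HSPA1B).

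Oxidative stress and iron genes rose in part, at 30% and 41.2% of their lists, against 9.61% of all genes. Of 20 NRF2 targets 6 rose and none fell, and 4 to 5 were called higher with 1 library left out. Of 17 genes of iron handling and ferroptosis 7 rose and 1 fell, with 4 to 5 called higher in those fits, and the lists share HMOX1 and the ferritins. FTL, the ferritin light chain that stores iron, had 4654 and 2597 FPKM with dipyridamole, against 1336 and 1179 FPKM without it (1.47 ± 0.24). FTH1, the heavy chain, had 178 and 154 FPKM with dipyridamole, against 65.7 and 90.3 FPKM without it (1.09 ± 0.20, adjusted p = 0.0527 without the control library). Both ferritin chains have processed pseudogenes, among which reads may be split. TFRC, the receptor that imports iron, had 198 and 192 FPKM with dipyridamole, against 400 and 259 FPKM without it (-0.72 ± 0.20), and its call was lost in 3 of the 4 fits (adjusted p up to 0.130). ERFE, a hormone that lowers hepcidin, had 16.7 and 75.9 FPKM with dipyridamole, against 9.15 and 12.2 FPKM without it (1.68 ± 0.30, with adjusted p up to 0.269).

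Genes of the lysosome and its proton pump were tested for 38 members, of which 11 rose (28.9%, against 9.61% of all genes) and 2 fell (5.26%, against 10.6%). Without the sorafenib library 1 member was called higher, and in the other 3 such fits 6 to 8 were. NPC1, which exports cholesterol from lysosomes, had 152 and 140 FPKM with dipyridamole, against 73.9 and 49.1 FPKM without it (1.26 ± 0.19). The acid hydrolases GLA and LIPA fell by 1.03 ± 0.19 and 0.82 ± 0.18 on the log2 scale.

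Autophagy genes rose in 7 of 26 tested and fell in none, and 4 to 6 were called higher with 1 library left out. The share of this list that rose was 26.9%, against 9.61% of all genes. SQSTM1, the cargo receptor p62, had 477 and 612 FPKM with dipyridamole, against 228 and 231 FPKM without it (1.23 ± 0.19). OPTN, a receptor for damaged mitochondria and bacteria, had 82.5 and 169 FPKM with dipyridamole, against 28.7 and 54.3 FPKM without it (1.56 ± 0.18). MAP1LC3B, the LC3 of the autophagosome membrane, rose by 1.24 ± 0.18 and WIPI1, a lipid-binding factor of its formation, by 1.40 ± 0.20.

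Few genes of sterol synthesis passed. Of 26 genes of cholesterol synthesis and uptake 5 fell and 1 rose (median -0.20), shares of 19.2% and 3.85% beside the 10.6% and 9.61% of all genes. With 1 library left out 1 to 4 were called lower and 0 to 2 higher. EBP, a sterol isomerase, had 43.6 and 33.2 FPKM with dipyridamole, against 84.8 and 54.5 FPKM without it (-0.82 ± 0.18). Of 19 fatty acid synthesis genes 4 fell and 2 rose (21.1% and 10.5%), and 0 to 4 were called lower with 1 library left out, the fewest without the sorafenib library. Among 14 genes of lipid droplets 3 rose and 1 fell, a fall lost in each fit that left out a library, led by the lipase MGLL, which had 114 and 134 FPKM with dipyridamole, against 55.3 and 56.2 FPKM without it (1.14 ± 0.18).

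Transcripts of the mitochondrial genome fell in 5 of 13 cases, with a median of -0.67, and 0 were called lower with any 1 library left out. MT-ND3, a subunit of complex I, had 2117 and 848 FPKM with dipyridamole, against 4103 and 2324 FPKM without it (-1.20 ± 0.23, with adjusted p of 0.0582 to 0.195 in those fits). Of 29 nuclear genes of oxidative phosphorylation 4 fell and none rose, where 13.8% is near the 10.6% of all genes, and 0 to 5 were called lower with 1 library left out. Cytosolic ribosomal protein genes rose in 6 of 40 cases with a median of 0.31, and 37 of the 40 differences were above 0. Between 0 and 2 were called higher with 1 library left out. RPS2 had 2516 and 3155 FPKM with dipyridamole, against 1741 and 1716 FPKM without it (0.70 ± 0.23, with adjusted p up to 0.250). Ribosomal protein genes have many pseudogenes, among which reads may be split. The share of these genes that rose was 15%, against 9.61% of all genes. Of 29 genes of ribosome biogenesis 11 fell and none rose, with the nucleolar proteins NOP56 and NOP2 lower by 1.07 ± 0.18 and 0.80 ± 0.18 on the log2 scale. With a library left out 2 to 9 were called lower, the fewest without the sorafenib library.

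**Figure D4:**
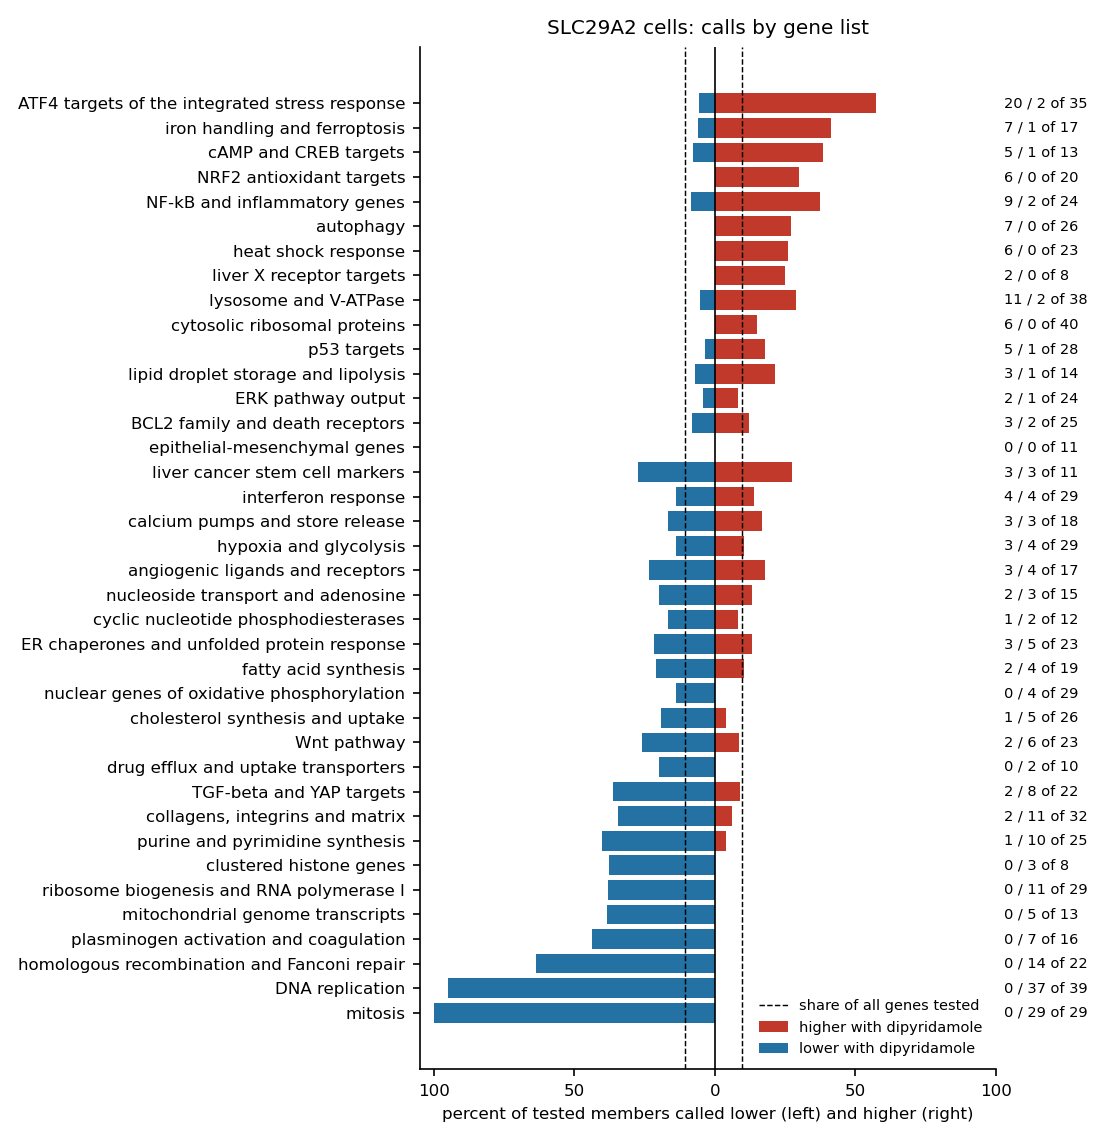
Share of the tested members of each gene list with at least 8 tested members that passed the test in SLC29A2 cells, as lower (blue, left) or higher (red, right) with dipyridamole. The numbers at the right are members higher / lower of members tested, and the dashed lines mark the shares of all genes tested, 9.61% higher and 10.6% lower. Mitosis (29 of 29 lower) and DNA replication (37 of 39 lower) stand at the bottom and ATF4 targets (20 of 35 higher) at the top.

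Growth arrest and death genes did not move as a block. In the p53 list 17.9% rose and 3.57% fell, against 9.61% and 10.6% of all genes. Of 28 p53 targets 5 rose and 1 fell, and 3 to 5 were called higher with 1 library left out. GADD45A, a growth arrest gene that also responds to ATF4, had 1172 and 1802 FPKM with dipyridamole, against 402 and 780 FPKM without it (1.37 ± 0.21). PHLDA3, an inhibitor of AKT, had 185 and 540 FPKM with dipyridamole, against 100 and 162 FPKM without it (1.30 ± 0.21). BBC3, the death protein PUMA, had 31.9 and 61.2 FPKM with dipyridamole, against 13.1 and 29.6 FPKM without it (1.12 ± 0.19), and each of the 3 genes was above both libraries without dipyridamole in each library given it. FAS, a death receptor, fell, with 15.3 and 17.4 FPKM with dipyridamole, against 44.1 and 56.8 FPKM without it (-1.56 ± 0.19).

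NF-kB and inflammatory genes rose in 9 of 24 cases (37.5%, against 9.61% of all genes) and fell in 2 (8.33%, against 10.6%). RELB, a subunit of the non-canonical pathway, had 51.2 and 88.9 FPKM with dipyridamole, against 17.5 and 30.4 FPKM without it (1.51 ± 0.18). IL32, an inflammatory cytokine, had 30.7 and 60.5 FPKM with dipyridamole, against 6.31 and 20.7 FPKM without it (1.81 ± 0.21). Leaving out 1 library gave 3 to 11 higher members, the fewest without the control library. Of 29 interferon response genes 4 rose and 4 fell, 13.8% each way and so near the shares of all genes, and with 1 library left out 2 were called higher and 1 to 4 lower. Among them were IFI35, higher by 1.25 ± 0.19, and IFIT1, an antiviral RNA-binding protein that overlaps LIPA, lower by 1.37 ± 0.26 on the log2 scale.

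Several lists of secreted and matrix genes held more falls than rises. Falls made up 36.4% of the TGF-beta and YAP list and 34.4% of the matrix list, against 10.6% of all genes. Rises made up 9.09% and 6.25%, against 9.61%. Of 22 TGF-beta and YAP targets, THBS1 among them, 8 fell and 2 rose, and with 1 library left out 4 were called lower in 3 fits and 8 without the dipyridamole library. CTGF, a matricellular growth factor, had 59.2 and 10.99 FPKM with dipyridamole, against 164 and 74.5 FPKM without it (-2.05 ± 0.24, lost without the library given both drugs at adjusted p = 0.0730 and without the sorafenib library at 0.0626). ID3, a target of BMP signals, had 25.4 and 28.0 FPKM with dipyridamole, against 52.96 and 78.4 FPKM without it (-1.24 ± 0.19). Of 32 genes of collagens, integrins and matrix 11 fell and 2 rose, and 2 to 6 were called lower with 1 library left out. COL8A1, a collagen of vessel walls, had 2.64 and 2.72 FPKM with dipyridamole, against 16.7 and 8.66 FPKM without it (-1.83 ± 0.26).

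Coagulation genes fell in part, at 43.8% of their list, against 10.6% of all genes. Of 16 genes of plasminogen activation and coagulation 7 fell and none rose, but 1 was called lower without the sorafenib library or without the library given both drugs, against 6 and 7 in the other fits. F3, the tissue factor that starts coagulation, had 41.5 and 10.2 FPKM with dipyridamole, against 132 and 54.5 FPKM without it (-1.98 ± 0.20). PLAT, the tissue plasminogen activator, had 725 and 118 FPKM with dipyridamole, against 1288 and 440 FPKM without it (-1.36 ± 0.23, with adjusted p up to 0.119), so its library with dipyridamole alone was above the sorafenib library and the groups overlapped. Of 17 angiogenic ligands and receptors 4 fell and 3 rose (23.5% and 17.6%), with a median of 0.21, and with 1 library left out 2 to 3 were called lower and 0 to 2 higher. EDN1, the vasoconstrictor endothelin 1, had 4.95 and 2.36 FPKM with dipyridamole, against 18.7 and 17.6 FPKM without it (-2.10 ± 0.24). KIT, a receptor that sorafenib inhibits, had 0.721 and 1.02 FPKM with dipyridamole, against 5.15 and 7.55 FPKM without it (-1.96 ± 0.27).

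Keratins of simple epithelium, which SK-Hep1 cells also express, moved in both directions. KRT18 had 204 and 158 FPKM with dipyridamole, against 699 and 491 FPKM without it (-1.70 ± 0.19). KRT8, its partner and neighbour, had 719 and 853 FPKM with dipyridamole, against 1645 and 1497 FPKM without it (-1.002 ± 0.21, adjusted p = 0.0510 without the control library). KRT8 and KRT18 overlap on opposite strands, so their reads cannot be fully separated. KRT19 had 81.3 and 63.8 FPKM with dipyridamole, against 31.2 and 30.4 FPKM without it (1.20 ± 0.19). The 12 epithelial markers summed to 1048 and 1116 FPKM with dipyridamole, against 2437 and 2079 FPKM without it, and most of this was KRT8 and KRT18. Of the 12 markers 7 averaged 1 FPKM or more in the 4 libraries. None was at 0 in all 4, but CDH1, EPCAM and GRHL2 were at 0.27 FPKM or less in each.

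Whether the response differed from that of mock cells was tested with a cell by dipyridamole term over all 8 libraries. None of 13899 genes that averaged 1 FPKM or more in the 8 passed, while 2756 (19.8%) had an unadjusted p under 0.05 and limma-voom on recovered reads called 0. Of the 2776 genes called in SLC29A2 cells, 89.5% moved the same way in mock cells, against 69.0% of all genes tested. THBS1 had 206 and 57.4 FPKM with dipyridamole, against 973 and 602 FPKM without it in mock cells, and its effect in SLC29A2 cells minus that in mock cells was -0.31 ± 0.38 (adjusted p = 0.678). When terms for cell by sorafenib and for sorafenib by dipyridamole were added, 1799 genes passed, 537 with a higher and 1262 with a lower response in SLC29A2 cells. Neither fit has replicates. In the main comparison, any change of the dipyridamole effect under sorafenib, or of the sorafenib effect between the cells, is part of the spread. The fit with added terms leaves fewer residual degrees of freedom than the 3 of the main comparison. Its median difference over all genes was -0.14, without division by size factors.

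The gene nearest the threshold was MUC1, a cell surface mucin. It had 28.4 and 18.5 FPKM with dipyridamole, against 47.7 and 37.9 FPKM without it in SLC29A2 cells, and 66.3 and 44.7 FPKM with dipyridamole, against 33.4 and 25.8 FPKM without it in mock cells (-1.73 ± 0.17, adjusted p = 0.0817). So MUC1 was lower with dipyridamole in both pairs of SLC29A2 cells and higher in both pairs of mock cells. The same pattern was shown by AMH, the anti-Mullerian hormone (-1.91 ± 0.21, adjusted p = 0.102), and by the non-coding RNA AL645608.7 (-2.33 ± 0.30, adjusted p = 0.106). AL359878.2 had 7.59 and 2.83 FPKM with dipyridamole, against 5.27 and 5.94 FPKM without it in SLC29A2 cells, and 41.0 and 49.2 FPKM with dipyridamole, against 0.147 and 0.945 FPKM without it in mock cells (-5.15 ± 0.57, adjusted p = 0.102). LRRC71 differed by -1.38 ± 0.19.

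With the opposite sign, the translation factor EEF1A2 had 331 and 381 FPKM with dipyridamole, against 167 and 221 FPKM without it in SLC29A2 cells, and 190 and 230 FPKM with dipyridamole, against 222 and 285 FPKM without it in mock cells (1.15 ± 0.16, adjusted p = 0.106). MSRB1, a methionine sulfoxide reductase, differed by 1.29 ± 0.17, UBALD2 by 1.13 ± 0.16, C8orf82 by 1.24 ± 0.17 and SLC25A6, an ATP/ADP carrier, by 1.11 ± 0.16. Over all 13899 genes the median of this difference was -0.14, and -0.0076 after division by size factors, against which each value here can be read. Among the 24 largest changes of SLC29A2 cells, C4BPB differed from mock cells by -1.23 ± 0.27, GNG13 by -1.81 ± 0.46 and KRT33B by 1.71 ± 0.52 (adjusted p of 0.113 to 0.157), and none of the 24 passed.

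**Figure D5:**
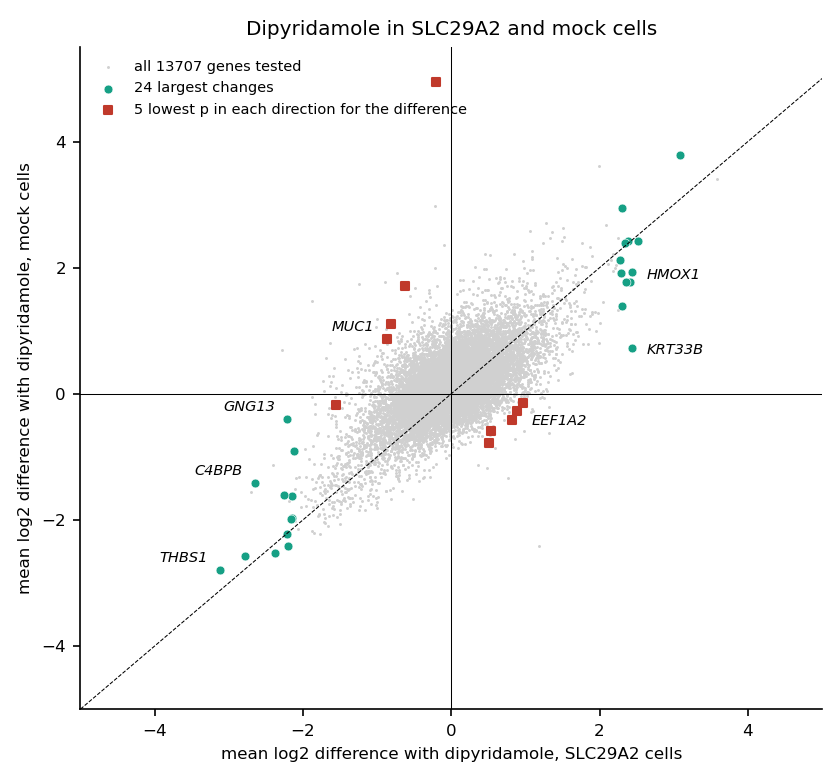
Mean log2 difference with dipyridamole over both pairs, in SLC29A2 cells across and in mock cells up the page, for the 13707 genes tested (grey). Green points are the 24 largest changes of SLC29A2 cells and red squares the 5 genes of each sign with the smallest p for the difference between the cells. THBS1 and HMOX1 lie near the dashed line of equal effects, and MUC1, lower in SLC29A2 cells and higher in mock cells, lies well above it.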

How the data were processed

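The authors deposited 1 table of FPKM per library. Tools listed in the submitters' processing notes, with no role given, are HTSeq 0.6.1, TopHat2 2.0 and edgeR, and the build listed is GRCh38.p12. Per the labels, RNA was selected by poly(A) and strand is not stated. Overlaps with expressed genes on the other strand are not marked for every gene described, for example FAS, RAD54L, FANCI, MGLL and SQSTM1. Symbols and positions come from GENCODE 29 on GRCh38, which matched 58039 of 58302 genes, and 8 lines without a gene identifier were left out. Values were tested as log2(FPKM + 1), which understates the changes of low genes. limma 3.58.1 in R 4.3.3 fitted sorafenib and dipyridamole to the 4 SLC29A2 libraries, for genes with a mean of 1 FPKM or more, with a trend of the variance on the mean. Tests were two-sided, and p-values were adjusted by Benjamini-Hochberg over all genes tested, with 0.05 as the threshold. This left 1 residual degree of freedom, to which the moderated variance added 14.3. The comparison with mock cells used all 8 libraries and 3 residual degrees of freedom, with fewer left in the fit with added interaction terms.

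Whole reads were recovered from the FPKM steps, with 93.6% of values within 0.01 of a whole read. The steps put 14.07 to 16.69 M reads in each of the 8 libraries, where 1 read in a gene of 2 kb was worth 0.0300 to 0.0355 FPKM, which covers counting error only. Named genes were the 12 largest called changes in each direction among coding and lncRNA genes moving alike in both pairs, up to 4 called members of each of 42 lists per direction by smallest p, or the 2 with the largest change where none was called, the whole nucleoside and phosphodiesterase lists, and 5 genes of each sign for the comparison with mock cells. Not every gene that this rule picks is described. The members and lists were chosen with earlier results of these data known. Alternatives were another pseudocount, other filters on low values, size factors, no trend, limma-voom on the recovered reads, no sorafenib term, all 8 libraries, added interaction terms and leaving out each library. The script was tested on simulated data.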

Additional observations from a re-analysis of the deposited data

How the results depend on the processing

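The 2776 calls became 2101 to 3505 with a pseudocount of 0.1, a filter of 5 FPKM, size factors, no trend, limma-voom on recovered reads or all 8 libraries, and limma-voom and the 8-library fit shared 2599 and 2517 of them in direction. They became 0 without a filter on low values (28485 genes tested, 4474 with an unadjusted p under 0.05) and 296 without the sorafenib term. Leaving out each SLC29A2 library gave 0 to 2371 calls over both kinds of fit. The comparison with mock cells kept 0 calls in the other settings but gave 1799 with both further interaction terms and 0 to 1 with a library left out, the 1 without the dipyridamole library of SLC29A2 cells. The cause of these changes was not tested. Among single genes, 2114 of 3464 values stayed on their side of the threshold, 1308 lost the call, 10 gained it and 32 turned direction, all but 1 with a library left out. The exception was SLC29A3 with a pseudocount of 0.1 (-0.0027). With a library left out, the log2 difference over both kinds of fit ranged from -0.27 to 0.022 for PDE8A, -1.98 to 0.16 for SLCO4A1, -0.23 to 0.43 for PDE4C, -0.72 to 2.45 for EGR1, -1.76 to 0.41 for G0S2, -0.18 to 0.46 for PDE6D and -0.67 to 2.80 for IL24. It ranged from -0.00070 to 0.39 for ADORA2B, -0.98 to 0.12 for CD14, -0.59 to 0.48 for SLC29A2, -0.062 to 0.27 for ADA, -0.63 to 0.22 for SERPINA1, -0.28 to 0.30 for SLC29A3, -0.92 to 0.13 for PNP and -0.30 to 1.63 for PSMB9. Fits without the sorafenib term and with a library left out mix the sorafenib difference into that of dipyridamole. In the 8-library fits alone, the range was 0.29 to 1.44 for EGR1 and -1.41 to -0.41 for SLCO4A1. There it was -0.80 to -0.55 for G0S2 and 0.34 to 1.79 for IL24, with no change of direction in these genes. No paired analysis was possible beyond the sorafenib term, because each condition had 1 library.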

Other observations

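Of 23 Wnt pathway genes 6 fell (26.1%, against 10.6% of all genes) and 2 rose (8.70%, against 9.61%) in cells given dipyridamole, and 1 to 3 were called lower with 1 library left out. WNT3, a ligand, had 27.6 and 23.5 FPKM with dipyridamole, against 45.7 and 47.6 FPKM without it (-0.85 ± 0.19). DKK1, a secreted Wnt inhibitor, had 855 and 228 FPKM with dipyridamole, against 984 and 978 FPKM without it (-1.15 ± 0.31), so it was lowest with both drugs, and all 4 fits that left out a library lost its call (adjusted p of 0.0729 to 0.589). Of 18 genes of calcium pumps and store release 3 rose and 3 fell (16.7% each way), and with 1 library left out 0 to 3 were called higher and 1 to 4 lower. The pump ATP2A2 had 170 and 134 FPKM with dipyridamole, against 281 and 237 FPKM without it (-0.77 ± 0.18, adjusted p = 0.0813 without the sorafenib library).

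Of 29 genes of hypoxia and glycolysis 3 rose and 4 fell, and these shares of 10.3% and 13.8% are near those of all genes. HK1, the hexokinase that starts glycolysis, had 269 and 290 FPKM with dipyridamole, against 133 and 147 FPKM without it (0.995 ± 0.18). LDHA, a lactate dehydrogenase chain, had 648 and 307 FPKM with dipyridamole, against 1303 and 828 FPKM without it (-1.22 ± 0.20). SLC2A3, a glucose transporter, had 115 and 99.5 FPKM with dipyridamole, against 54.6 and 48.5 FPKM without it (1.04 ± 0.18). NDRG1, a stress gene of hypoxia, rose by 1.55 ± 0.18. Of 11 markers used for liver cancer stem cells 3 rose and 3 fell, and 1 to 3 were called higher and 1 to 2 lower with 1 library left out, with THY1, a surface glycoprotein, at 47.1 and 46.5 FPKM with dipyridamole, against 98.8 and 130 FPKM without it (-1.26 ± 0.19). No member of the epithelial-mesenchymal list passed among 11 tested. In it 2 members had an unadjusted p under 0.05 and limma-voom called 0, and the largest differences were in SPARC, a secreted matrix protein (-0.55 ± 0.22), and VIM, the filament protein vimentin (-0.45 ± 0.20). Of 10 transporters of drugs 2 fell, SLCO4A1 (-0.91 ± 0.25), which carries organic anions in, and ABCC4 (-0.64 ± 0.20), which pumps out cyclic nucleotides, and both lost the call in at least 2 of the 4 fits that left out a library (adjusted p up to 0.310 and 0.136). Of 24 genes of ERK output 2 rose and 1 fell (8.33% and 4.17%), and of 8 liver X receptor targets 2 rose, with 0 to 1 called higher when a library was left out.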
